A study of Mus musculus with 3 samples.

Results

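T-box transcription factors that are best known outside the cerebral cortex were followed in RNA from dorsal cortex, taken from mice on postnatal day 4. The group consists of 10 of the 23333 genes that could be named on the arrays, Tbx1, Tbx2, Tbx3, Tbx4, Tbx5, Tbx6, Tbx15, Tbx18, Tbx20 and Tbx21, taken by name. Every array probe whose RefSeq accession belongs to one of them was used, dim ones included. This gave 13 of the 55681 non-control probes, with 3 for Tbx20, 2 for Tbx6 and 1 for each other gene, so probes of Tbx20 and of Tbx6 share a target.

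Each of the 3 two-colour Agilent arrays carried Cy5-labelled RNA from 1 Brpf1-deficient pup beside Cy3-labelled RNA from 1 wild-type pup, with 350 ng of total RNA as input. Brpf1 encodes a scaffold of histone acetyltransferase complexes. The sources used here do not give the deleted allele, any Cre driver, the strain or the litters, so the p-values cover these 3 pairs only. They rest on the spread between the pairs, with the variance of each probe moderated toward one pooled over all probes tested. The colours were not swapped on any array, so a dye effect and a genotype effect on a probe cannot be told apart.

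T-box factors share a DNA-binding domain, the T-box, first described in Brachyury, and activate or repress genes of the embryo. Tbx5 and Tbx4 act in the forelimb and hindlimb fields, Tbx5 also in the heart, and Tbx2 and Tbx3 are repressors in heart, limb and mammary gland. In the cortex, the family is known through other members, Tbr1 in deep-layer neurons and Eomes in intermediate progenitors.

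The direction of the ratios needs care. Log2 ratios here are Cy5 over Cy3, and those of Brpf1 itself were 0.63, 0.73 and 0.96 on arrays 1, 2 and 3 (mean 0.77 ± 0.17, SD, n = 3 arrays, limma adjusted p = 0.00455), so its signal was higher in the channel labelled Brpf1-deficient. In the authors' deposited table the Brpf1 probe has a log fold change of -0.80, and all 9 T-box probes listed there have the sign opposite to the ratios below. The same holds for all 5566 probes called here. The position of the 1 Brpf1 probe relative to the deletion is unknown, and a probe outside the deletion checks nothing. Values are therefore given by channel, as "labelled Brpf1-deficient" (Cy5) and "labelled wild type" (Cy3), and which genotype a direction belongs to is not settled.

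The share of non-control spots that the scanner software marked as well above background was 57.9% to 58.2% in Cy5 and 59.9% to 61% in Cy3. All 8 genes listed as markers of cortical neurons were above background, with 3 of their 11 probes brighter in Cy5 and 1 in Cy3. The arrays were not alike for Emx1, which was not called, with log2 ratios of 0.65, -2.72 and -2.65 on arrays 1, 2 and 3. The array ratios correlated at Pearson r = 0.485 to 0.703 across the 32995 probes that passed the filter on dim probes, where probes are not independent replicates. Of these, 7.5% were called brighter in Cy5 and 9.37% brighter in Cy3 at a limma adjusted p under 0.05. The calls were brighter in Cy5 in 44.4% of cases, but in 80.5% with median centring in place of loess. With 3 arrays, their number sets the precision.

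Of the 13 T-box probes, 9 passed the filter, standing for 8 genes, and 3 of the 9 were called: Tbx5, Tbx3 and Tbx4, all brighter in Cy3, labelled wild type. None was called brighter in Cy5 in limma. Tbx1, toward Cy5, and Tbx15, toward Cy3, had an unadjusted p under 0.05 in limma, as did a large share of all tested probes. That share is not given here, so counts at this threshold mark no trait of the members or of any list. For scale, a Cdkn1a probe with an unadjusted p of 0.0407 had an adjusted p of only 0.119. The filter keeps a probe that is bright in either channel, so these counts describe probes with signal and not all members. Without the filter, the same 3 of 13 probes were called brighter in Cy3, where 6.1% of all probes were, and 0 in Cy5, where 4.96% were. The median log2 ratio was -0.101 over the 9 probes, against -0.0121 over all probes tested. Of the 9 tested probes, 5 had a ratio below 0 on all 3 arrays and 0 above 0 on all 3, where 31.4% and 28.2% of all tested probes did.

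**Figure D1:**
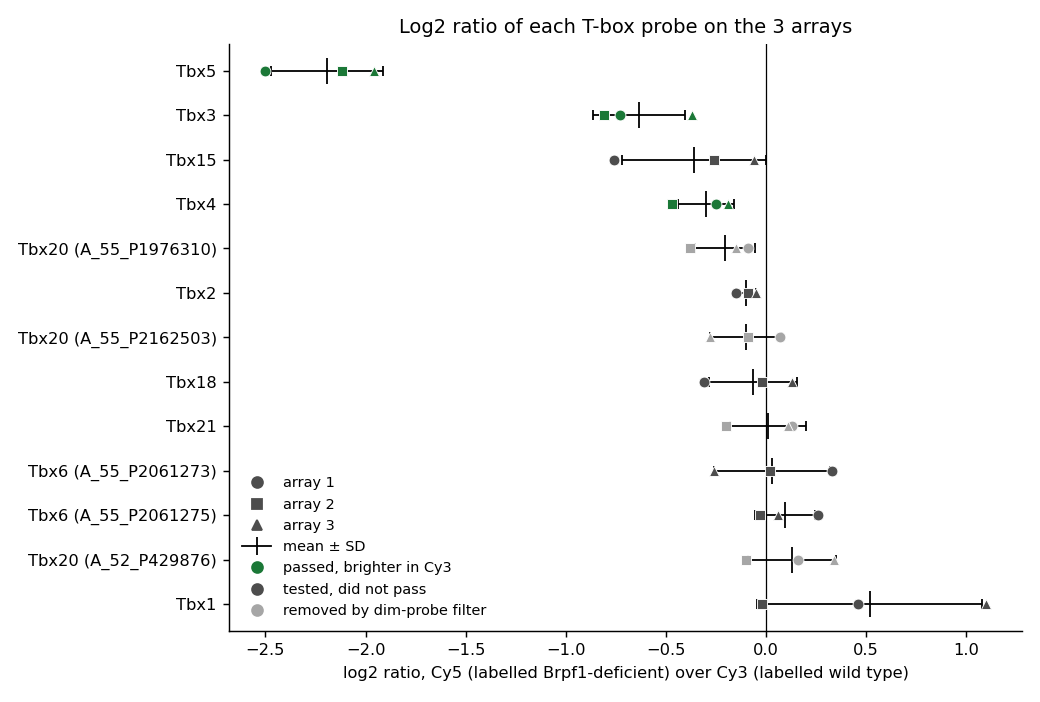
Log2 ratio of Cy5 (labelled Brpf1-deficient) over Cy3 (labelled wild type) for the 13 T-box probes, with 1 symbol per array and the mean ± SD of the 3 arrays. Tbx5 lies between -2.50 and -1.96, apart from the other probes, which range from -0.81 to 1.10.

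Tbx5 showed the largest difference of the group. Its normalised log2 intensity was 6.81, 7.09 and 7.16 in Cy5, labelled Brpf1-deficient, against 9.30, 9.21 and 9.13 in Cy3, labelled wild type, on arrays 1, 2 and 3. The channels did not overlap, and every Cy3 value lay above every Cy5 value. In the raw spots the Cy5 medians were 194, 156 and 159 over local backgrounds of 203, 100 and 102, and the Cy3 medians were 568, 400.5 and 415 over backgrounds of 87, 36 and 45. Tbx5 thus passed the scanner's mark in Cy3 on all 3 arrays and in Cy5 on none.

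The Tbx5 log2 ratios were -2.50, -2.12 and -1.96, with a mean of -2.19 ± 0.28 (SD, n = 3 arrays) and a limma adjusted p of 0.000118. The mean ratio corresponds to 4.57-fold brighter in Cy3, which is a point estimate and not a lower bound. The interval from the fit ran from -2.44 to -1.94, and the ratio was -3.51 to -1.86 under alternative processing settings. No Cy5 spot passed the scanner's mark, so the size of the difference rests on Cy5 signal near background and is open to dye bias. Among the 32995 tested probes, 10 had a mean ratio at or below that of Tbx5, itself included. With the scanner software's processed signals the ratio was -3.51 (adjusted p = 0.000862), and in the authors' deposited table the log fold change is 4.48 with an adjusted p of 0.240, of opposite sign.

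Tbx3, the chromosomal neighbour of Tbx5 and a repressor in limb and mammary gland development, was next. It was well above background in both channels on all 3 arrays. Its intensity was 9.05, 8.99 and 9.14 in Cy5, labelled Brpf1-deficient, and 9.78, 9.80 and 9.51 in Cy3, labelled wild type. The channels did not overlap, and array 3 had the smallest gap. The log2 ratios of -0.73, -0.81 and -0.37 averaged -0.64 ± 0.23 (SD, n = 3 arrays, limma adjusted p = 0.0118), which is 1.55-fold brighter in Cy3. The authors' deposited table gives Tbx3 a log fold change of 0.72.

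Tbx4, which directs outgrowth in the hindlimb and lung, was dim. It had 7.44, 7.19 and 7.41 in Cy5, labelled Brpf1-deficient, against 7.69, 7.66 and 7.60 in Cy3, labelled wild type. Its Cy5 spot passed the scanner's mark on 1 array and its Cy3 spot on all 3. The channels did not overlap, but the gap was small, with log2 ratios of -0.25, -0.47 and -0.19 and a mean of -0.30 ± 0.14 (SD, n = 3 arrays, limma adjusted p = 0.0442, 1.23-fold). In fits on the 2 remaining arrays, the Tbx4 call was lost when any 1 of the arrays was left out (adjusted p of 0.0519, 0.212 and 0.0879 without array 1, 2 and 3). It was also lost with the processed signals (0.0513), without background correction (0.0718) and with median centring (0.0593).

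Tbx2, a repressor closely related to Tbx3, lies beside Tbx4. It was above background in both channels on all 3 arrays, at 7.50, 7.55 and 7.47 in Cy5, labelled Brpf1-deficient, and 7.66, 7.64 and 7.52 in Cy3, labelled wild type. The Cy3 values were higher on each array, though the lowest Cy3 value fell within the Cy5 range. The mean log2 ratio of -0.10 ± 0.05 (SD, n = 3 arrays) did not pass (limma adjusted p = 0.326), and its 95% interval ran from -0.264 to 0.0627.

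**Figure D2:**
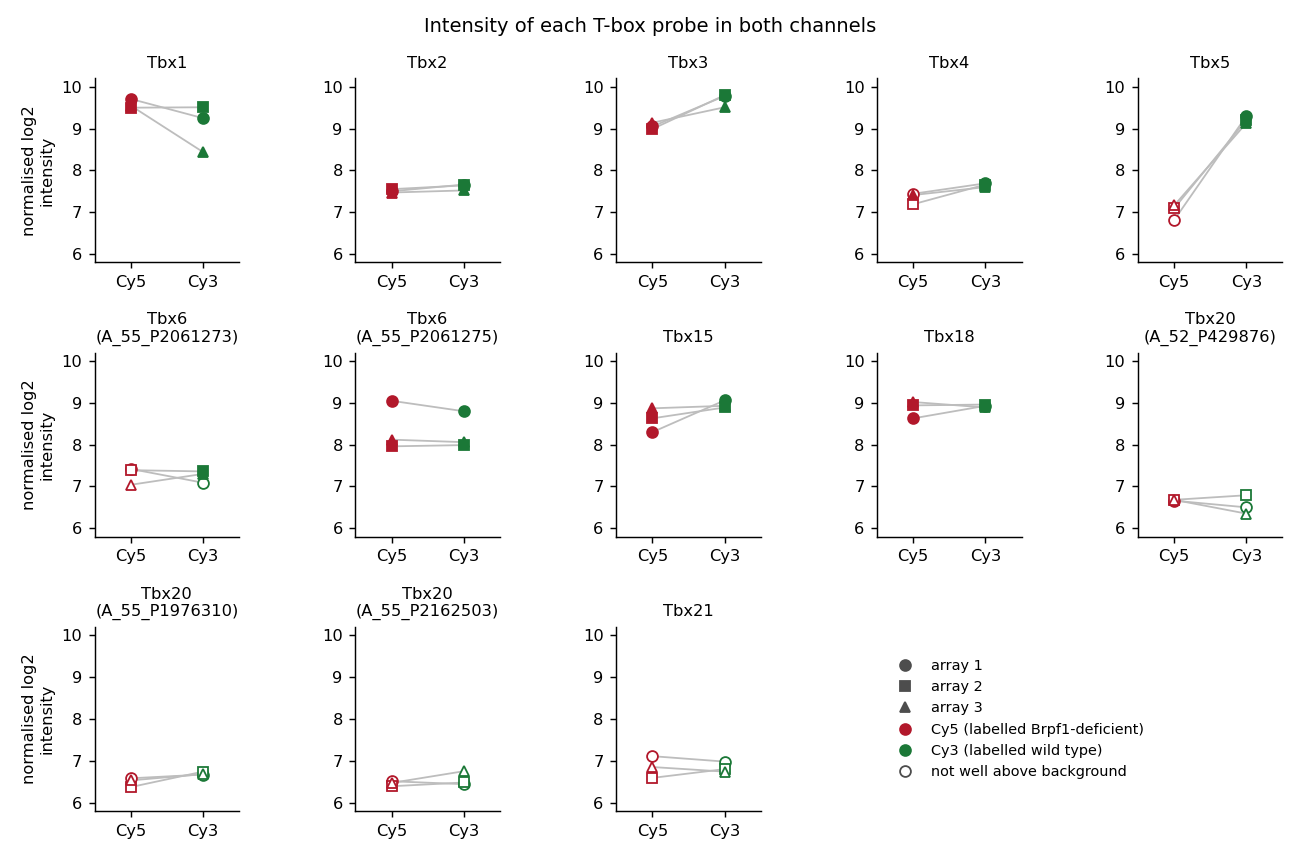
Normalised log2 intensity of each T-box probe in Cy5 (labelled Brpf1-deficient, left) and Cy3 (labelled wild type, right), with lines joining the channels of an array and open symbols for spots not well above background. The Tbx5 panel has open symbols near 7 in Cy5 and filled ones above 9 in Cy3, while both channels of Tbx20 and Tbx21 hold only open symbols.

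Tbx2, Tbx3, Tbx4 and Tbx5 form a subfamily that lies in the genome as linked pairs. In the reference gene table Tbx3 and Tbx5 are adjacent protein-coding genes on chromosome 5, and Tbx2 and Tbx4 on chromosome 11. Within each pair 1 gene, Tbx5 or Tbx4, had Cy5 spots below the scanner's mark on most or all arrays, while the other, Tbx3 or Tbx2, passed it in both channels throughout. The pairs were not alike, however. Mean Cy5 intensity was 7.02 for Tbx5 against 9.06 for Tbx3, but 7.34 for Tbx4 against 7.51 for Tbx2, both dim and close to the mark. Differences in ratio between the members of a pair were not tested.

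No measured gene beside the pairs was called. Of the 2 genes of any kind on each side of Tbx3, Tbx4 and Tbx5, 8 of 9 that are not T-box genes had no probe named here, and the 1 measured, 2610027K06Rik, had a log2 ratio of -0.09. Protein-coding neighbours were therefore added after the values were seen. They were Spring1, Med13l, Rbm19 and Lhx5 around the chromosome 5 pair and Bcas3, Brip1 and Ints2 around the other. None of their 9 probes was called in limma, and their mean log2 ratios lay between 0.01 and 0.27. The mean ratios of the 4 T-box genes between them lay below 0, as did that of 2610027K06Rik. Tbx2, at -0.10, was not called and lay close to 2610027K06Rik. Of all tested probes, 31.4% were below 0 on all 3 arrays. Among the protein-coding neighbours, Spring1 had the highest mean ratio, at 0.27 ± 0.14 (SD, n = 3 arrays, limma adjusted p = 0.0578). The probes of Spring1 and Ints2 were the 2 with an unadjusted p under 0.05, which a large share of all tested probes had.

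**Figure D3:**
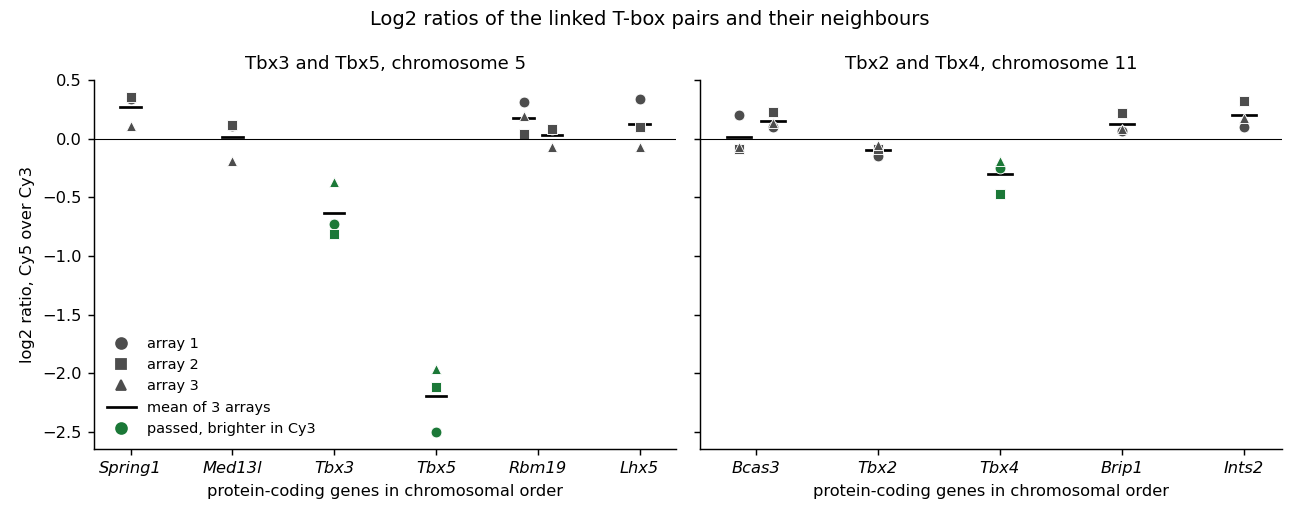
Log2 ratio of Cy5 over Cy3 on each array for protein-coding genes in chromosomal order around Tbx3 and Tbx5 (left) and around Tbx2 and Tbx4 (right), with the mean of the 3 arrays as a bar and side-by-side columns for genes with more than 1 probe. The T-box genes lie below 0 on every array, though Tbx2 was not called, and the bars of their protein-coding neighbours lie between 0.01 and 0.27. The neighbour 2610027K06Rik is not protein-coding and is not drawn, and it had a mean log2 ratio of -0.09.

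A second group of members has roles in mesoderm, head and skin. Tbx1, a regulator of the pharyngeal arches and the outflow tract of the heart, was the only tested member with a mean ratio above 0.5. Its intensity was 9.71, 9.50 and 9.55 in Cy5, labelled Brpf1-deficient, and 9.25, 9.51 and 8.44 in Cy3, labelled wild type. Cy5 was steady while Cy3 was low on array 3, and array 2 had a Cy3 value within the Cy5 range. The log2 ratios of 0.46, -0.02 and 1.10 averaged 0.52 ± 0.56 (SD, n = 3 arrays) and did not pass (limma adjusted p = 0.0861). Without array 2 the ratio was 0.78 and passed (adjusted p = 2.88e-05), but that fit rests on 2 arrays with ratios as far apart as 0.46 and 1.10. Without array 3 it was 0.22 (adjusted p = 0.301), and without array 1 it was 0.54 (adjusted p = 0.155).

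Tbx15, which takes part in skeletal development and skin pigment pattern, spread widely. It had 8.30, 8.63 and 8.87 in Cy5, labelled Brpf1-deficient, and 9.06, 8.89 and 8.93 in Cy3, labelled wild type. The channels did not overlap, but the gap shrank to 0.06 on array 3. The mean of -0.36 ± 0.36 (SD, n = 3 arrays) did not pass (limma adjusted p = 0.0880). It passed without array 2 (-0.41, adjusted p = 0.0278) and without array 3 (-0.51, adjusted p = 0.0489), but without array 1 the ratio was -0.16 (adjusted p = 0.199). Each of these fits rests on 2 arrays.

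Tbx18, a factor of the epicardium and ureter that is also expressed in mural cells of blood vessels, showed no call. It had 8.63, 8.94 and 9.02 in Cy5, labelled Brpf1-deficient, and 8.93, 8.96 and 8.89 in Cy3, labelled wild type, and the channels overlapped. The mean log2 ratio was -0.07 ± 0.22 (SD, n = 3 arrays, limma adjusted p = 0.636), with a 95% interval from -0.289 to 0.155. All 8 mural cell markers passed the filter, with none called in limma and 3 brighter in Cy5 at an unadjusted p under 0.05. That unadjusted threshold was met by a large share of all tested probes, so such counts mark no trait of a list. Their summed intensity was 29300 to 30800 in Cy5 and 26000 to 27100 in Cy3 over the arrays. The 8 meningeal fibroblast markers summed to 72600 to 78800 in Cy5 and 79300 to 84100 in Cy3, with none called and 2 brighter in Cy3 at an unadjusted p under 0.05. Endothelial markers had 2 of 8 probes past the filter called brighter in Cy5, where 7.5% of all tested probes were. These were Cldn5 (0.30) and 1 probe of Kdr (0.45, second probe 0.08 and not called). All 9 probes of that list summed to 52500 to 59400 in Cy5 and 45400 to 46500 in Cy3. Most of both sums came from the Cldn5 probe, with mean log2 intensities of 15.22 in Cy5 and 14.91 in Cy3. Cdh5 (-0.06), Pecam1 (0.06), Flt1 (0.12 and 0.13) and Tek (0.16) were not called. The part of any of these cell type in the T-box values was not tested. In bulk tissue, fewer cells of a type and less RNA per cell cannot be told apart.

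Tbx6, a factor of the presomitic mesoderm, had a pair of probes that ran at different brightness. Probe A_55_P2061275 was above background throughout, at 9.05, 7.96 and 8.12 in Cy5, labelled Brpf1-deficient, and 8.80, 7.99 and 8.06 in Cy3, labelled wild type. Both channels were higher on array 1 than on the others. Its log2 ratio was 0.10 ± 0.15 (SD, n = 3 arrays, limma adjusted p = 0.422). Probe A_55_P2061273 was above background in Cy3 on 2 arrays and in Cy5 on none, with ratios of 0.33, 0.02 and -0.26 that changed sign between arrays.

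Tbx20, a heart factor, and Tbx21, which directs T helper 1 and natural killer cells and is also known as T-bet, were not well above background in either channel on any array. The 3 Tbx20 probes had raw Cy5 medians of 79 to 150 over local backgrounds of 99 to 151, and raw Cy3 medians of 60 to 76 over backgrounds of 40 to 60. Tbx21 had 126 to 156 in Cy5 over 122 to 131, and 78 to 83.5 in Cy3 over 45 to 50. Neither gene has a measured fold, and their log2 ratios of -0.21 to 0.13 rest on background. For Tbx20 the 3 probes differed in sign. Among lymphocyte markers, Cd3g, Cd8a, Klrb1c and Ncr1 were likewise never above background, and none of the 4 lymphocyte probes that passed was called in limma or had an unadjusted p under 0.05. Their list summed to 2300 to 2710 in Cy5 and 2300 to 2440 in Cy3. Of the heart muscle markers, Actc1 and Myl7 were never above background. Of the 6 probes that passed, 1, that of Myl4, was called brighter in Cy5, where 7.5% of all tested probes were. The list sum was 4820 to 4910 in Cy5 and 4310 to 4490 in Cy3.

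**Figure D4:**
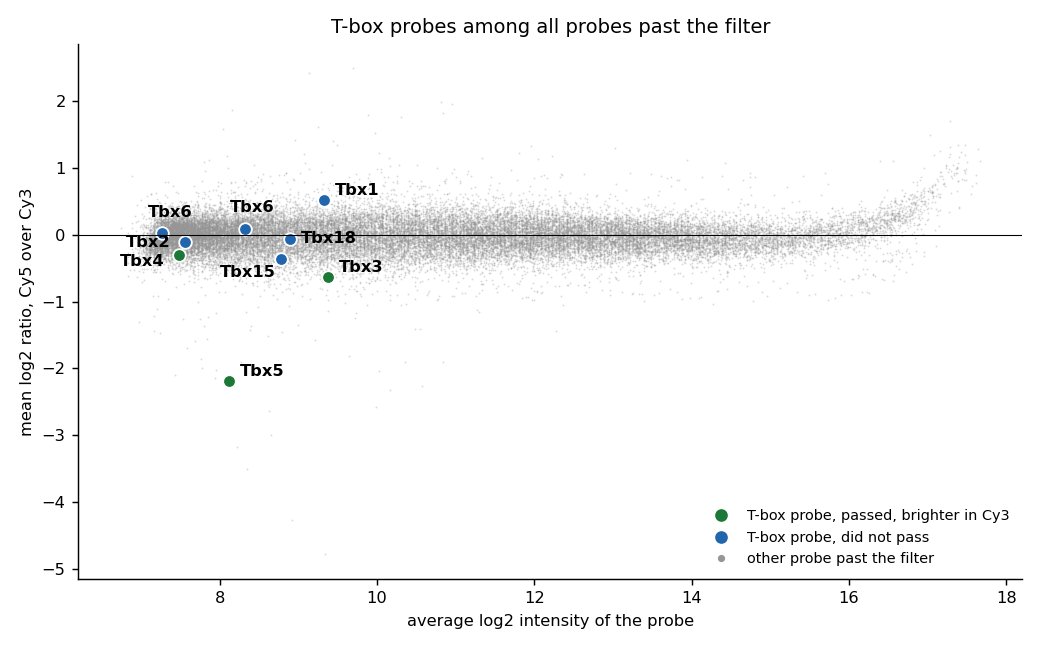
Mean log2 ratio of Cy5 over Cy3 against the average log2 intensity of each of the 32995 probes past the filter, with the 9 T-box probes marked. Tbx5 lies at -2.19, below the band that holds most probes of its brightness, while the remaining T-box probes lie in or at the edge of the band.

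Promoter sequence from RefSeq (GRCm38.p6) was found for 6 of the 10 genes, as 7 entries. The 250 bases before the start are shown for Tbx4, the only called member with an entry, and for the second Tbx1 entry, since Tbx1 had the highest ratio and this was the only one of the 7 entries to hold the T-box half-site AGGTGT, in capitals, searched on both strands. The same letters occur in 11.8% of the 32817 promoters of this length. The Tbx4 entry begins inside the annotated gene span, and holds 6 CG dinucleotides, as does the median promoter, and the Tbx1 entry holds 10.
Tbx4, chr11:85896515-85896764, plus strand: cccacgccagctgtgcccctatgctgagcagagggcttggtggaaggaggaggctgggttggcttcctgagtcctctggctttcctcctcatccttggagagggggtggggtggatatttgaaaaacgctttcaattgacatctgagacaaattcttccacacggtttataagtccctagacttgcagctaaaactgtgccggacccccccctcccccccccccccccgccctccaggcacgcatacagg
Tbx1, chr16:18590672-18590921, minus strand: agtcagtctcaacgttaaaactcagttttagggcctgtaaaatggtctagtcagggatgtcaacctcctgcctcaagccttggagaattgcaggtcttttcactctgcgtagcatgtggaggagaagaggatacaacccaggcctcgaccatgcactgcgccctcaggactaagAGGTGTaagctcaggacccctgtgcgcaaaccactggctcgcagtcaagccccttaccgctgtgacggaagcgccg

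The other 7 T-box genes ran both ways. Of their 10 probes, 7 passed the filter, 2 were called brighter in Cy5 and 1 in Cy3, where 7.5% and 9.37% of all tested probes were. The median log2 ratio was 0.213, against -0.0121 over all tested probes. Both Cy5 calls were Tbr1, the deep-layer neuron factor, at 0.33 ± 0.21 (limma adjusted p = 0.0481) and 0.48 ± 0.28 (SD, n = 3 arrays, adjusted p = 0.0283). Tbx22, a factor of palate development, was called brighter in Cy3 with one probe (-0.71 ± 0.41, adjusted p = 0.0214), while its second probe was not above background (0.21 ± 0.14). Eomes had 0.28 and 0.21 and did not pass, and T and Tbx19 were never above background. The difference in direction between Tbr1 and Tbx5 was not tested.

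Among partners of T-box factors in the heart, 2 of the 8 probes past the filter were called brighter in Cy3 and 2 in Cy5. The shares over all tested probes were 9.37% and 7.5%. Nkx2-5, a homeobox factor that binds DNA together with Tbx5, had log2 ratios of -0.55, -0.96 and -0.71. Their mean was -0.74 ± 0.20 (SD, n = 3 arrays, limma adjusted p = 0.00621), which is 1.67-fold brighter in Cy3. No Cy5 spot of Nkx2-5 passed the scanner's mark. Gata6, a zinc-finger factor, had -0.40 ± 0.13 (adjusted p = 0.0210), with Cy5 spots below the mark on all 3 arrays and Cy3 spots above it on 2. Mef2c (0.42 ± 0.24) and Srf (0.34 ± 0.21, second probe 0.09), both widely expressed in neurons, were brighter in Cy5. Gata4 had 0.04 and did not pass, and Hand1, Hand2 and Myocd were never above background.

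Of all tested probes, limma called 9.37% brighter in Cy3 and 7.5% in Cy5. Of 15 probes past the filter for genes known as targets of T-box factors, it called 2 brighter in Cy3 and 0 in Cy5, with a median of -0.0607. Both belong to Cdkn2a, a cell cycle inhibitor gene that Tbx2 and Tbx3 are known to repress, at -1.91 ± 0.16 (SD, n = 3 arrays, limma adjusted p = 8.02e-05) and -0.92 ± 0.21 (adjusted p = 0.00300, 1.89-fold brighter in Cy3, with no Cy5 spot past the scanner's mark). The heart targets Nppa and Gja5 were not called, at 0.03 and -0.06. Fgf10, a limb bud and lung growth factor downstream of Tbx5 and Tbx4, had 0.36 ± 0.28 (adjusted p = 0.0596). Of 11 limb field probes, Meis2 was brighter in Cy5 (0.38 ± 0.27) and Prrx1, a limb mesenchyme factor, in Cy3 (-0.42 ± 0.22, second probe -0.28), and the median was 0.10. En1, Hand2 and Pitx1 were never above background. Of 6 mesenchyme marker probes past the filter, 2 were called brighter in Cy3, 1 probe of Prrx1 and that of Twist1 (-1.51). Meox1 (0.12), Prrx2 (0.08) and Twist2 (-0.05) were not called. The summed intensity of all 7 probes of the list was 2760 to 3300 in Cy5 and 3560 to 4020 in Cy3. The part of mesenchyme in the T-box values was not tested.

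Genes were ranked by the Euclidean distance of their ratios over the 3 arrays to those of Tbx5. Only tested probes with a gene name were ranked, leaving out the members and clone or model names. Of those ranked, the nearest were Onecut1 (distance 0.31), Tal1 (0.35), Cdkn2b (0.40), Lhx4 (0.50) and Foxa1 (0.51). In Cy3, Foxa1 was at least 3.81-fold brighter and Lhx4 at least 3.92-fold. Onecut1 was 4.07-fold brighter in Cy3 by its mean ratio, and Tal1 and Cdkn2b had mean log2 ratios of -2.27 and -2.04. The distance rests on 3 arrays. Like Tbx5, Onecut1, Lhx4 and Foxa1 passed the scanner's mark in Cy3 throughout and in Cy5 nowhere, while Tal1 and Cdkn2b passed it in both channels on all 3 arrays.

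**Figure D5:**
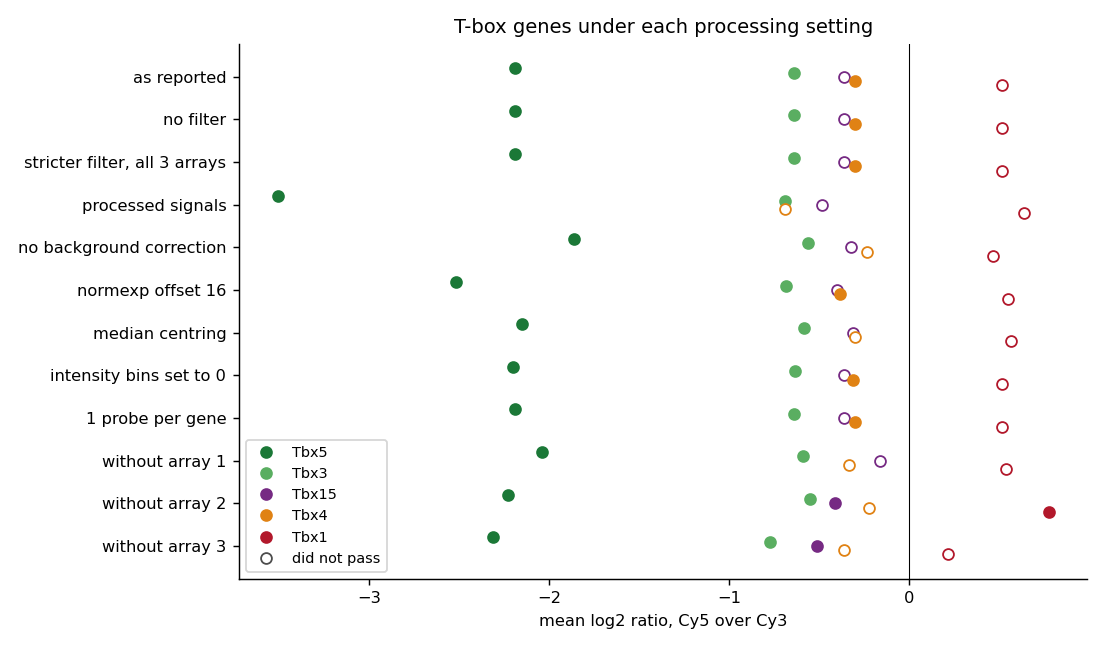
Mean log2 ratio of Cy5 over Cy3 of Tbx5, Tbx3, Tbx15, Tbx4 and Tbx1 under each processing setting, filled where the limma adjusted p was under 0.05. Tbx5 and Tbx3 are filled in every row, at -3.51 to -1.86 and -0.77 to -0.55, while Tbx4 is open in 6 of the 11 alternatives.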

How the data were processed

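Total RNA of the dorsal cortex was compared on 3 arrays of 1 slide and 1 scan. The deposited scanner files hold median spot and background intensity per channel, read with Agilent Feature Extraction 10.7.3.1 on an mm9 grid, per the file headers. The processed intensity is background-subtracted and dye-normalized by the scanner software, per the file headers. The authors' deposited table holds log2 fold changes, t and log-odds scores and p-values. The authors used limma, per the submitters' processing notes. No source used here states the direction of their ratio. The table lists 40000 entries, none with an adjusted p under 0.05 (9796 with an unadjusted p under 0.05).

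Medians were used because the files give no spot mean. They were corrected with normexp (offset 50) and normalized by loess within arrays in limma 3.58.1 under R 4.3.3, with control spots at weight 0. Between 250 and 272 outlier spots per array were left out, and no spot was saturated. The filter kept probes marked well above background in 1 or both channels on 2 or more arrays. The log2 ratio was tested against 0 across all such probes, two-sided, with moderated variances, Benjamini-Hochberg adjustment and a threshold of 0.05. The fit was tested on simulated data. Channel intensities are log2 values after loess and Aquantile, and the lower bound of a fold is the bright mean minus the mean of the dim value or the lowest signal well above background, whichever is higher. Where every dim value lies above that lowest signal, as for Tbx5, the bound equals the mean ratio. Values after ± are SDs over arrays, and 95% intervals come from the fit.

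Probes were named through RefSeq (27656 of 55681) or the authors' table (4082). The members and lists were chosen with earlier results of these data known. Named were all member probes, Brpf1, at most 4 called genes per list, the 5 nearest to Tbx5 among the genes ranked and the neighbours of called members. Uncalled list genes given as examples, and protein-coding neighbours, were chosen after their values were seen. Alternatives were no filter, a stricter filter, processed signals, no background correction, an offset of 16, median centring, intensity bins centred on 0, 1 probe per gene and each array left out.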

Additional observations from a re-analysis of the deposited data

How the results depend on the processing

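The ratios of Tbx5 and Tbx3 kept their direction and their calls under all 11 alternatives, from -3.51 to -1.86 (adjusted p at most 0.000862) and from -0.77 to -0.55 (adjusted p at most 0.0468). Tbx4 kept its direction (-0.69 to -0.22) but kept its call under 5 of the 11. The count of T-box probes brighter in Cy3 was 2 or 3 throughout, though not always of the same genes, since without array 2 or array 3 Tbx15 was called in place of Tbx4. The count brighter in Cy5 was 0 to 1 when 1 array was left out, the 1 being Tbx1. Fits with 1 array left out rest on 2 arrays, and their p-values lean on the variance pooled over probes. They are a poor measure of the spread between pairs. The number of all probes called, 5566, was 1437 with the processed signals and 2313 to 5603 with 1 array left out, lowest without array 3. Signs changed for values that never passed: Tbx6 probe A_55_P2061273 had -0.24 with processed signals, -0.03 without background correction and -0.12 (without array 1) to 0.17 with 1 array left out, and Tbx18 had -0.16 to 0.05 (without array 1) with 1 array left out. With processed signals the Tbx20 probes A_55_P1976310, A_55_P2162503 and A_52_P429876 had 0.08, 0.23 and 0.65, against -0.21, -0.10 and 0.13, and Tbx21 had 0.51, against 0.01. The cause was not tested. Tbx20 and Tbx21 have signal at background, which limits any statement on them. The test of the array ratios is itself paired, since both channels of an array form the pair, and no further block was fitted.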
